A study of Homo sapiens with 6 samples.

Results

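The transcripts described here were those of 9 genes of MHC class I antigen presentation, *HLA-B*, *HLA-C*, *HLA-E*, *B2M*, *TAP1*, *TAP2*, *TAPBP*, *PSMB9* and *NLRC5*. They were chosen by name, and all 9 were present among the 17471 genes listed. Expression was measured by RNA-seq as TPM (read density over a gene's length, scaled to a fixed sum per library) in 6 libraries. The cells were AN3CA, an endometrial cancer (EC) line from human uterus that expresses *PAX2*, a developmental transcription factor. The comparison asked how transcripts differ when *PAX2* is knocked down. In the control group, shEV (3 libraries, genotype labelled WT), the cells carried an empty hairpin vector. In the other group, shPAX2 (3 libraries, genotype labelled PAX2 KD), they carried a short hairpin RNA against *PAX2*. Both were delivered by lentivirus and selected with puromycin, so the selection was shared by all 6 libraries. The study's text elsewhere calls the AN3CA control scrambled, and its methods give 1 hairpin. No untransduced cells, no second hairpin and no cells treated with interferon were analysed here. The labels do not say whether replicates came from separate cultures, so p-values measure only the spread between these libraries, which may be technical.

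MHC class I molecules show peptides from inside a cell to CD8+ T cells and natural killer cells. Proteasomes cut cytosolic proteins, the TAP transporter moves the peptides into the endoplasmic reticulum (ER), and tapasin helps to load them onto a complex of a polymorphic heavy chain and the invariant light chain β2-microglobulin. Most of the genes are inducible by interferon and are turned on together by the transactivator NLRC5, and tumors often lose expression of part of the set.

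Depth ranged from 10730909 to 18221859 reads in shEV and from 19422615 to 29405787 reads in shPAX2, with no overlap between the groups. *PAX2* itself fell by 1.47 on the log2 scale (SE 0.18, limma adjusted p = 0.000294) to 26.9% of its shEV mean. The labels call the cells epithelial, yet *EPCAM* had at most 6 reads, *CDH1* at most 4 and *KRT19* and *KRT7* at most 1 read in any library, and *KRT18* was the only 1 of 6 epithelial markers high enough to be tested. The pan-leukocyte gene *PTPRC* had at most 1 read, and the summed TPM of the 6 leukocyte markers in the file was 1.14 to 1.79 in shEV and 1.83 to 2.59 in shPAX2. The 2 endothelial markers in the file summed to at most 0.0611 TPM in any library. The 4 fibroblast markers in the file summed to 849 to 888 TPM in shEV and 597 to 689 TPM in shPAX2, most of it *COL1A2*, while *COL3A1* went the other way, from 25.8, 38.4 and 41.3 TPM in shEV to 248, 241 and 236 TPM in shPAX2, and the part of these shifts in the results below was not tested. In bulk RNA, fewer cells of a kind and less RNA per cell cannot be told apart.

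On GRCh37, the build of the deposited values (hg19), 7 of the 9 genes lie on chromosome 6, inside the MHC region. *HLA-E* (30457286 to 30461971, plus strand) lies nearest the telomere, followed by *HLA-C* (31236526 to 31239907, minus strand) and *HLA-B* (31321649 to 31334844, minus strand). *TAP2* (32789610 to 32806516), *PSMB9* (32811913 to 32827628), *TAP1* (32812986 to 32821593) and *TAPBP* (33267471 to 33282061) form the other end of the set. *B2M* lies on chromosome 15 (45003556 to 45011049) and *NLRC5* on chromosome 16 (57023397 to 57117443).

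Promoter sequences are shown because the class I genes are known to share control elements near their starts, and because the members did not move together in these libraries. Windows of 250 bases before to 50 bases after the start, from RefSeq on GRCh38.p14, were matched for 7 of the 9 members, and *HLA-E* and *NLRC5* had none. They are reference sequence and not the alleles of AN3CA. Capitals mark matches, on either strand, to 5 motifs, which were an ISRE-type repeat (GAAANNGAAA), the CCAAT box (CCAAT), a CRE-like core (TGACG), a kappa B type motif (GGGNNTTNCC) and a GAS-type motif (TTCNNNGAA). Among 35116 windows of this length, 3.57% held the ISRE-type repeat, 34.6% the CCAAT box, 24.6% the CRE-like core, 5.68% the kappa B type motif and 7.66% the GAS-type motif. The heavy chain promoters *HLA-B* (chr6:31357130-31357429, minus strand) and *HLA-C* (chr6:31272043-31272342, minus strand) are given first, then *B2M* (chr15:44711267-44711566, plus strand), so that the heavy chains can be read against their light chain.
HLA-B: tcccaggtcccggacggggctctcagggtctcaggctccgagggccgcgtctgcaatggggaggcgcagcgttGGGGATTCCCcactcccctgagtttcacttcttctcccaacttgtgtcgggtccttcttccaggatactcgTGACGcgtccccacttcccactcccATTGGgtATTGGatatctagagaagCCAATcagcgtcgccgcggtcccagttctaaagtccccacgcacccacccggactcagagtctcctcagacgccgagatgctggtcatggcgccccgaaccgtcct
HLA-C: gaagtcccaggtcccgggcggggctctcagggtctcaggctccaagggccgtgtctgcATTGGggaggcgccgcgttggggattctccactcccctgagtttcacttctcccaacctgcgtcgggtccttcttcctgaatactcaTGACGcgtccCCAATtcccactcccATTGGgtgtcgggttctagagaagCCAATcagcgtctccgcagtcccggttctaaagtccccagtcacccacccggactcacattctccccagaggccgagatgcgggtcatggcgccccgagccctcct
B2M: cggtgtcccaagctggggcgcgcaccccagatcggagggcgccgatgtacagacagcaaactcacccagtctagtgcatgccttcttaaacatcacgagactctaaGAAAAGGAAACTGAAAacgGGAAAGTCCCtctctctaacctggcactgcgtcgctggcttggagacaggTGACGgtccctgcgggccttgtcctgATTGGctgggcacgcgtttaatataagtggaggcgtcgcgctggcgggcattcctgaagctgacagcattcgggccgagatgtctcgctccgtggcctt

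*HLA-B* and *HLA-C* each held the CRE-like core followed by CCAAT boxes, at -106 and -105 from the start for the core and with the last CCAAT box at -56 in both, and *HLA-C* held 1 more CCAAT box before the core, at -192. *B2M* held the same pair in the same order, at -75 and -49, and before it 2 overlapping ISRE-type matches, from -144 and -138, and a kappa B type match from -125. *HLA-B* had a kappa B type match from -177 where *HLA-C* had none. The letters GAAANNGAAA were in neither heavy chain window, which says only that this spelling is not there.

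The promoters of *TAP1* (chr6:32853655-32853954, minus strand) and *PSMB9* (chr6:32853942-32854241, plus strand) are shown because their RefSeq starts on GRCh38.p14 lie 488 bases apart. The genes are read in opposite directions, and their transcripts moved in opposite directions in shPAX2. On the GRCh37 spans given above, *PSMB9* encloses *TAP1*, so the distance between the starts depends on the annotation. *TAP2* (chr6:32838690-32838989, minus strand) encodes the partner of *TAP1*.
TAP1: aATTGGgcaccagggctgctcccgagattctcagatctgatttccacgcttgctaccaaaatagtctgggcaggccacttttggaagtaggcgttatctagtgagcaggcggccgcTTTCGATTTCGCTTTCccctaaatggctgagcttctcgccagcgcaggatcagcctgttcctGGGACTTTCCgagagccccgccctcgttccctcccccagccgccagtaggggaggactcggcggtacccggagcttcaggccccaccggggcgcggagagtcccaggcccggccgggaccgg
PSMB9: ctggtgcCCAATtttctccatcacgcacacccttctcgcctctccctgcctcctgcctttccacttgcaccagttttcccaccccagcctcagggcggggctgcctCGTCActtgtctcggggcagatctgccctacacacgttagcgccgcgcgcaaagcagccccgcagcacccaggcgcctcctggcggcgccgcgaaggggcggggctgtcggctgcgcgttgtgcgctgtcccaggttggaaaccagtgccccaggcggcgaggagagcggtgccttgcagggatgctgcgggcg
TAP2: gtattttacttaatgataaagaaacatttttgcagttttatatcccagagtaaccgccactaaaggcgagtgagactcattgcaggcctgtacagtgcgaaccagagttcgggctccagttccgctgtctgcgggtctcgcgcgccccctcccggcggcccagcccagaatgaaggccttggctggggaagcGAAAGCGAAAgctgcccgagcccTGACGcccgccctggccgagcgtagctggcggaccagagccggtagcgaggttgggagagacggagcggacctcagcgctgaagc

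*TAP1* held 2 overlapping ISRE-type matches, from -134 and -128, a kappa B type match from -72 and a CCAAT box at -249. The *PSMB9* window held a CCAAT box at -243 and a CRE-like core at -144 and none of the other motifs. The *TAP1* and *PSMB9* windows overlap at their far ends, and their CCAAT boxes at -249 and -243 are the same bases, read on opposite strands. The ISRE-type and kappa B type matches of *TAP1* also lie between the RefSeq starts of both genes, outside the *PSMB9* window. *TAP2* held 1 ISRE-type match from -58 and 1 CRE-like core at -35. A second *TAP1* window in the table, from 32852712 to 32853011, held 1 GAS-type match. *TAPBP* (chr6:33314029-33314328, minus strand, sequence not shown) held 2 overlapping ISRE-type matches and 1 kappa B type match. A match is a description of letters and does not show that a factor binds there.

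Across the set, 6 of the 9 genes differed between shPAX2 and shEV at an adjusted p under 0.05 in a limma fit over 13163 genes. The nonclassical heavy chain gene *HLA-E* and both transporter genes, *TAP1* and *TAP2*, were higher in shPAX2. The light chain gene *B2M*, the inducible proteasome gene *PSMB9* and the transactivator gene *NLRC5* were lower. The classical heavy chain genes *HLA-B* and *HLA-C* and the tapasin gene *TAPBP* did not pass the test. Of all genes tested, 42.8% passed it (12.2% higher and 30.5% lower), beside 66.7% of the members. On chromosome 6, where most of the members lie, 69.3% of 635 genes tested passed it. None of the 9 also reached a log2 fold change of 1 in size, against 4.54% of all genes tested, and the median log2 fold change was -0.01 over the members and -0.10 over all genes tested. When the libraries were scaled by a median of ratios, the median of all genes moved up by 0.10, the calls over all genes went from 1612 higher and 4017 lower to 2786 higher and 2626 lower, and *B2M* was no longer called.

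**Figure D1:**
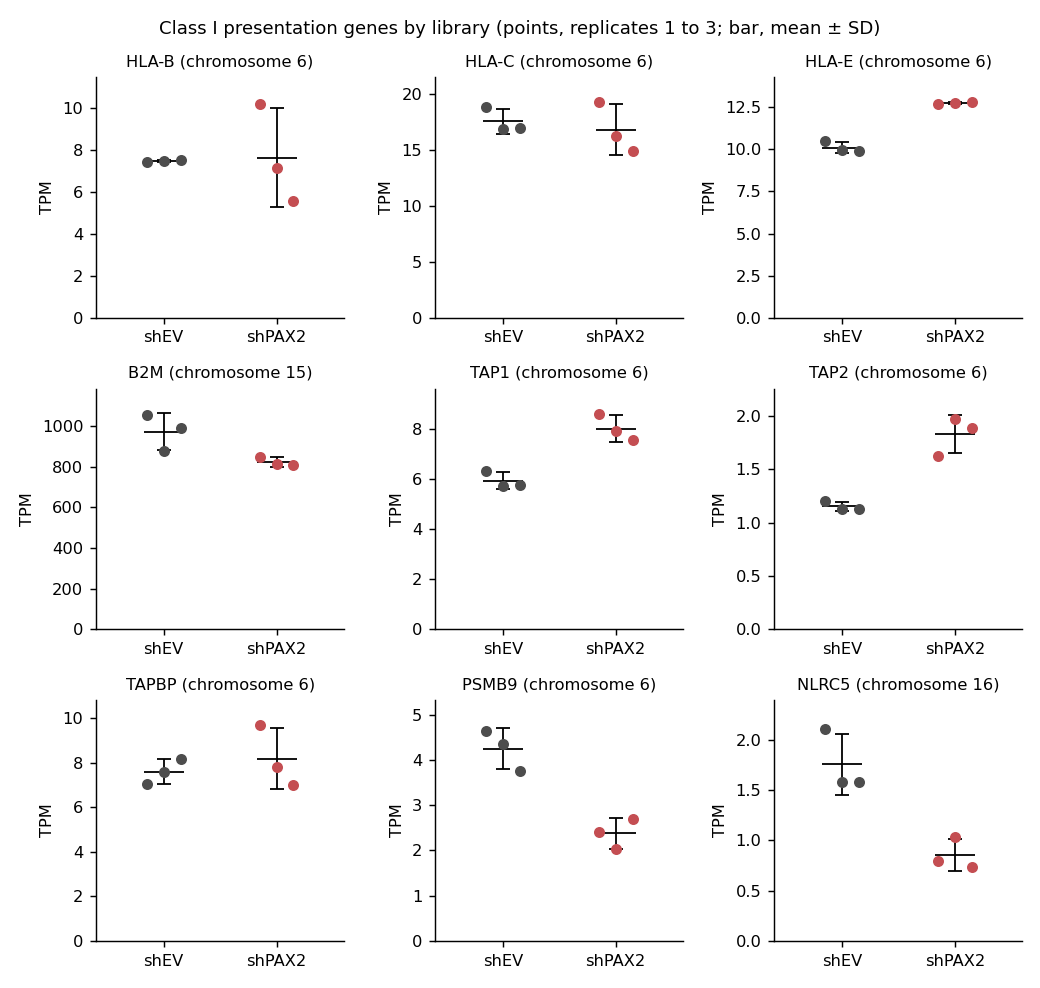
TPM (y axis, from 0) of each of the 9 genes in the 3 shEV libraries (grey points) and the 3 shPAX2 libraries (red points), with the mean and SD as bars. The groups stand apart for HLA-E, TAP1 and TAP2 (higher in shPAX2) and for B2M, PSMB9 and NLRC5 (lower), and overlap for HLA-B, HLA-C and TAPBP.

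Among the classical heavy chains, *HLA-B* had 7.425, 7.462 and 7.502 TPM in shEV replicates 1 to 3 and 10.2, 7.12 and 5.56 TPM in shPAX2 replicates 1 to 3. The shEV libraries were nearly identical and the shPAX2 libraries lay on both sides of them. The difference was -0.01 on the log2(TPM + 0.5) scale (SE 0.19, 95% interval -0.44 to 0.42, limma adjusted p = 0.965, exact permutation p = 1), and its sign turned under median-of-ratios scaling (0.09) and quantile normalization (0.20). *HLA-C*, also a classical heavy chain, had 18.9, 16.9 and 17.0 TPM in shEV and 19.4, 16.3 and 14.9 TPM in shPAX2. The groups overlapped. Its difference was -0.07 (SE 0.10, interval -0.29 to 0.16, limma adjusted p = 0.613, exact permutation p = 0.6), with 0.04 and 0.07 under the same scalings.

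Within shPAX2, *HLA-B*, *HLA-C* and *TAPBP* were highest in the library with 29405787 reads and lowest in the library with 19422615 reads, and *TAP1* followed the same order. The part of depth in this spread was not tested. Without shPAX2 replicate 3, *HLA-B* stood at 0.18 and *HLA-C* at 0.01, and neither passed the test.

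*HLA-E*, a heavy chain of low polymorphism that presents leader peptides of other class I chains to natural killer cell receptors, had 10.5, 9.97 and 9.89 TPM in shEV and 12.7, 12.8 and 12.8 TPM in shPAX2. All shPAX2 libraries lay above all shEV libraries. It rose by 0.32 (SE 0.07, interval 0.17 to 0.48, limma adjusted p = 0.00514), to 126% of its shEV mean. The exact permutation p was 0.1, which is the smallest that 3 against 3 libraries allow, and the groups stood apart for 54.9% of all genes tested.

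*B2M*, the light chain shared by all these heavy chains, was by far the most abundant transcript of the set, with 1052, 875 and 991 TPM in shEV and 849, 814 and 806 TPM in shPAX2. The groups stood apart by the gap between 875 and 849 TPM. It fell by 0.24 (SE 0.07, interval -0.40 to -0.07, limma adjusted p = 0.0299) to 84.6% of its shEV mean. This call was lost under 8 of 16 alternatives, with adjusted p-values over the alternatives from 0.0130 to 0.175, while the value stayed between -0.31 and -0.13. Under median-of-ratios scaling it stood at -0.13 (adjusted p = 0.175), and the call was also lost without shEV replicate 1 or 3 or shPAX2 replicate 2 or 3 (adjusted p 0.0669 to 0.0950).

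The log2 ratio of a heavy chain to *B2M* within a library does not depend on how the library was scaled. *HLA-E* to *B2M* was -6.65, -6.46 and -6.65 in shEV and -6.06, -5.99 and -5.97 in shPAX2, a difference of 0.57 with no overlap (exact permutation p = 0.1, 0.233 adjusted over 7 ratios). *HLA-B* to *B2M* differed by 0.22 (exact permutation p = 0.5) and *HLA-C* to *B2M* by 0.17 (exact permutation p = 0.2), and in both the groups overlapped. Without shPAX2 replicate 3 the number of ratios that stood apart went from 3 to 5 of 7. Leaving out a library can only keep or raise that number, since groups already apart stay apart.

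*TAP1* and *TAP2* encode the subunits of the peptide transporter, and both rose. *TAP1* had 6.33, 5.73 and 5.76 TPM in shEV and 8.60, 7.92 and 7.56 TPM in shPAX2. It was higher in every shPAX2 library, by 0.40 (SE 0.09, interval 0.20 to 0.61, limma adjusted p = 0.00677), at 135% of its shEV mean. *TAP2* had 1.20, 1.13 and 1.12 TPM in shEV and 1.63, 1.97 and 1.88 TPM in shPAX2. It too was higher in every shPAX2 library, by 0.49 (SE 0.14, interval 0.18 to 0.80, limma adjusted p = 0.0186), at 159% of its shEV mean. Of the 75-base windows of the *TAP2* transcript, 35% also occurred in an overlapping readthrough gene, so part of its reads could be assigned to either. The call of *TAP2* was lost without shEV replicate 2 or 3 or shPAX2 replicate 2 or 3 (adjusted p 0.0544 to 0.0900), with the value between 0.45 and 0.48. The log2 ratio of *TAP1* to *TAP2* was 2.40, 2.35 and 2.36 in shEV and 2.401, 2.009 and 2.004 in shPAX2, so it overlapped between the groups (difference -0.23, exact permutation p = 0.4).

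*TAPBP* encodes tapasin, which bridges the transporter and the heavy chain. It had 7.04, 7.58 and 8.17 TPM in shEV and 9.68, 7.83 and 7.01 TPM in shPAX2, and the groups overlapped over most of their range. The difference was 0.09 (SE 0.12, interval -0.18 to 0.36, limma adjusted p = 0.581, exact permutation p = 0.7). Its sign turned without shPAX2 replicate 1, to -0.03.

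*PSMB9* encodes LMP2, the inducible catalytic subunit that replaces the constitutive subunit PSMB6 in the immunoproteasome. It had 4.65, 4.35 and 3.75 TPM in shEV and 2.41, 2.03 and 2.69 TPM in shPAX2, from 209 to 322 reads per library. Every shPAX2 library lay below every shEV library. It fell by 0.73 (SE 0.13, interval -1.03 to -0.42, limma adjusted p = 0.00264) to 55.9% of its shEV mean and stayed past the threshold in all 15 alternatives run on the scale of all genes, between -0.83 and -0.46. *PSMB6* was at 325, 337 and 311 TPM in shEV and 306, 337 and 347 TPM in shPAX2 and did not pass the test (0.03, limma adjusted p = 0.785). The ratio of *PSMB9* to *PSMB6* differed by -0.87 with no overlap (exact permutation p = 0.1, 0.233 adjusted over 7 ratios).

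Of the other inducible catalytic subunit genes, *PSMB8*, which replaces *PSMB5* and is a neighbour of *TAP1*, had only 3 to 7 reads per library and was not tested. Its ratio to *PSMB5* differed by -1.25 with no overlap (exact permutation p = 0.1, 0.233 adjusted over 7 ratios), a value that rests on those reads. *PSMB5* itself rose (0.25, SE 0.07, limma adjusted p = 0.0142). *PSMB10*, which replaces *PSMB7* and lies on chromosome 16, had 20.7, 18.5 and 18.7 TPM in shEV and 18.7, 22.6 and 18.9 TPM in shPAX2 (0.05, limma adjusted p = 0.680), with *PSMB7* at 0.15 (limma adjusted p = 0.106). The ratio of *PSMB10* to *PSMB7* differed by -0.10 with overlap (exact permutation p = 0.3), so of the 2 inducible subunits with enough reads, *PSMB9* was the one whose groups stood apart.

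*NLRC5* encodes the transactivator of class I promoters. It had 2.11, 1.58 and 1.58 TPM in shEV and 0.797, 1.04 and 0.732 TPM in shPAX2. All shPAX2 libraries were below all shEV libraries. It fell by 0.73 (SE 0.17, interval -1.11 to -0.36, limma adjusted p = 0.00726) to 48.7% of its shEV mean, and the pseudocount makes the log2 value smaller in size than the ratio of the means. The reads recovered for it were 38, 47 and 48 in shEV and 41, 47 and 24 in shPAX2, the fewest of the 9 genes, although reads were recovered only up to a factor common to a gene's libraries. The call held in all 15 alternatives, with adjusted p-values from 0.00377 to 0.0385.

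**Figure D2:**
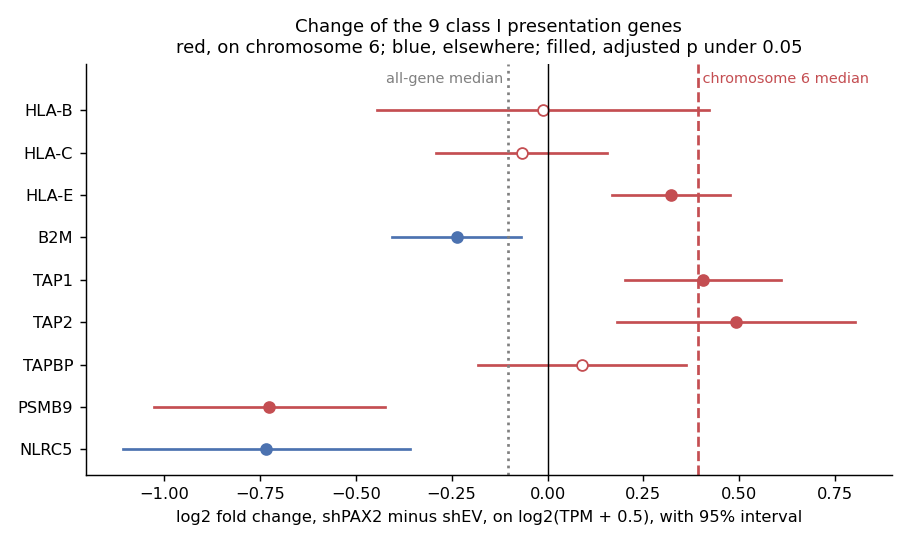
Log2 fold change (shPAX2 minus shEV, on log2(TPM + 0.5), x axis) of each gene with its 95% interval, red for genes on chromosome 6 and blue for the others, filled where the adjusted p was under 0.05. TAP1, TAP2 and HLA-E lie near the median of chromosome 6 (dashed, 0.39), PSMB9 far below it, and B2M and NLRC5 below the median of all genes (dotted, -0.10).

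Genes of chromosome 6 as a whole were higher in shPAX2. Their median log2 fold change was 0.39 over 635 genes tested, of which 394 were called higher and 46 lower, against -0.11 over 11996 genes of other chromosomes. In the MHC region (28 to 34 Mb) the median was 0.42 over 111 genes, and on the rest of chromosome 6 it was 0.38 over 524 genes. The values of *HLA-E*, *TAP1* and *TAP2* lay close to that level, at -0.07, 0.01 and 0.10 from the chromosome 6 median. *HLA-B*, *HLA-C* and *TAPBP* lay at -0.40, -0.46 and -0.30 from it. *PSMB9* lay at -1.12 from it, and 22 of the 635 tested genes on chromosome 6 and 0 of the 111 in the MHC region were lower.

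The members were fitted again after each library was centred on its chromosome 6 genes. *HLA-E* (-0.02, adjusted p = 0.823), *TAP1* (0.06, adjusted p = 0.507) and *TAP2* (0.15, adjusted p = 0.321) were then no longer called. *HLA-C* was called lower (-0.41, SE 0.10, adjusted p = 0.00387), and *PSMB9* stayed lower (-1.07, SE 0.14, adjusted p = 0.000132). *HLA-B* (-0.35, SE 0.18, adjusted p = 0.106) and *TAPBP* (-0.25, SE 0.12, adjusted p = 0.0730) did not pass. Whether the level of chromosome 6 as a whole follows from the hairpin was not tested, and in these 6 libraries it cannot be told apart from the group.

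**Figure D3:**
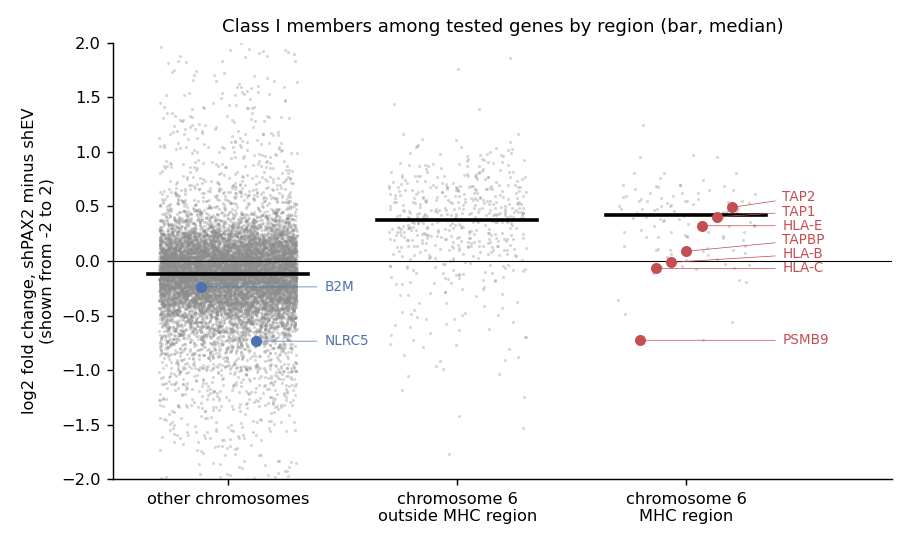
Log2 fold change (shPAX2 minus shEV, y axis, shown from -2 to 2) of tested genes on other chromosomes, on chromosome 6 outside the MHC region and in the MHC region, with the median of each as a bar and the members named. The medians are -0.11, 0.38 and 0.42, and PSMB9 is the lowest of the tested MHC region genes.

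Chosen genes of the MHC region with no role in presentation served as neighbours of the members. Of 43 tested, 32 were higher and 1 lower, with a median of 0.48, against 3 higher and 1 lower among the 7 members on chromosome 6. Over all 111 genes tested in the MHC region, 69 were higher and 3 lower. Over all genes tested, 12.2% were higher and 30.5% lower. The highest of the 43 were *ZNRD1* (0.95, SE 0.08) and *CLIC1* (0.81, SE 0.08), and the 1 called lower was *IER3* (-0.56, SE 0.13), a stress-response gene.

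Levels can be compared between genes only per length, and the lengths behind the TPM of the MHC region stood out. The gene length implied by reads and TPM together was 1 times the canonical transcript length for the median gene of other chromosomes (11188 genes) and 0.998 times on chromosome 6 outside the MHC region (492 genes). In the MHC region it was 6.43 times (115 genes, of which 85 were at or above 5 times). The factor was 6.09 for *HLA-B*, 7.11 for *HLA-C*, 7.25 for *HLA-E*, 8.72 for *TAP1*, 8.57 for *TAP2*, 5.87 for *TAPBP* and 8.17 for *PSMB9*, against 1.04 for *B2M* and 0.492 for *NLRC5*. If each read was counted once, the deposited TPM of the 7 members on chromosome 6 are low in relation to *B2M* by about these factors. The ratio of a gene's TPM between libraries does not depend on its length. The log2(TPM + 0.5) values do, through the pseudocount. With the MHC region rescaled to canonical lengths, an alternative chosen after seeing the data, *TAP2* went from 0.49 to 0.64 (limma adjusted p = 0.000518) and *PSMB9* from -0.73 to -0.83 (limma adjusted p = 0.000733), and the same 6 members were called. Why the lengths are long, and how reads were counted over them, was not tested.

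**Figure D4:**
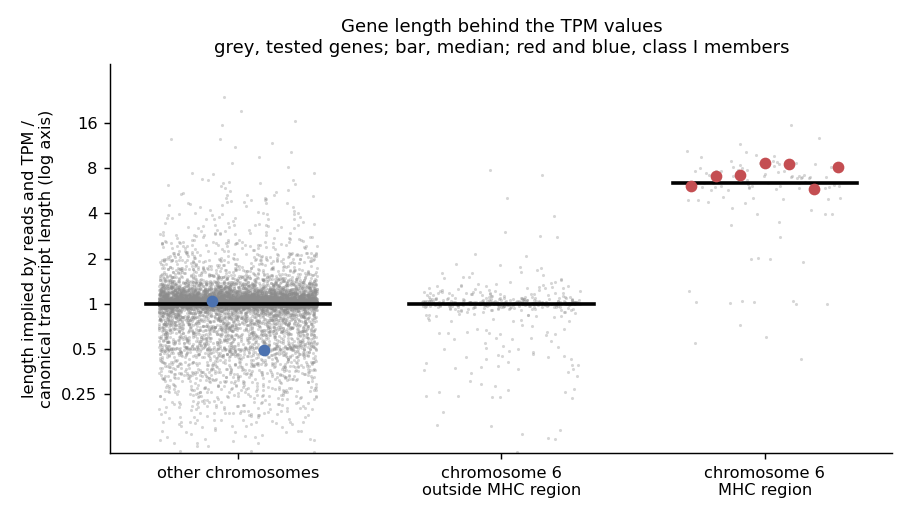
Gene length implied by reads and TPM divided by canonical transcript length (y axis, log scale) for tested genes with at least 100 reads (grey), with the median as a bar and the members as red and blue points. The 7 members in the MHC region lie between 5.87 and 8.72, with B2M at 1.04 and NLRC5 at 0.492.

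On the rescaled TPM, the order of levels in shEV was *B2M* (973 ± 90.0 TPM, SD, n = 3), *HLA-C* (125 ± 7.94), *HLA-E* (73.3 ± 2.26), *TAP1* (51.8 ± 2.94), *HLA-B* (45.4 ± 0.234), *TAPBP* (44.6 ± 3.32), *PSMB9* (34.7 ± 3.71), *TAP2* (9.87 ± 0.383) and *NLRC5* (1.76 ± 0.302). *B2M* and *NLRC5* were not rescaled, and the order rests on the implied lengths and on each read being counted once. The neighbours *HLA-B* and *TAPBP* did not differ beyond the SD of *TAPBP*. In shPAX2 the means were 823 ± 22.6 TPM for *B2M*, 120 ± 16.2 for *HLA-C*, 92.6 ± 0.468 for *HLA-E*, 70.0 ± 4.61 for *TAP1*, 48.0 ± 8.03 for *TAPBP*, 46.4 ± 14.2 for *HLA-B*, 19.4 ± 2.72 for *PSMB9*, 15.7 ± 1.52 for *TAP2* and 0.855 ± 0.161 for *NLRC5*. *TAPBP* and *HLA-B* exchanged places by less than their SDs, and the order was otherwise the same in both groups.

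Of 10 other heavy chain and class I-like genes in the file, 3 could be tested and all 3 were called, with a median of 0.50. Over all genes tested, 42.8% were called. *MICA*, a stress ligand of the receptor NKG2D that lies in the MHC region, rose most, by 0.97 (SE 0.11, limma adjusted p = 0.000168), from 6.21, 5.82 and 5.80 TPM in shEV to 10.3, 13.3 and 13.1 TPM in shPAX2. *HFE*, an iron-regulating class I-like gene on chromosome 6, rose by 0.50 (SE 0.11). *MR1*, which presents microbial vitamin metabolites and lies on chromosome 1, fell by 0.61 (SE 0.11, limma adjusted p = 0.00283). *HLA-F* had at most 1 read and *HLA-G* at most 6 reads in any library. All 12 MHC class II genes in the file were below 0.5 TPM in too many libraries to be tested on the deposited scale. With the MHC region rescaled, 2 of them could be tested. *HLA-DRB1*, a class II chain gene with 8, 6 and 12 reads in shEV and 34, 57 and 41 reads in shPAX2, was then called higher (1.21, SE 0.26, limma adjusted p = 0.00647), and *HLA-DMA* (-0.29, SE 0.20, limma adjusted p = 0.266) was not.

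Immunoproteasome and PA28 genes other than *PSMB9* split, with 1 higher and 2 lower of 5 tested and a median of 0.05. The share called was 60%, beside 42.8% of all genes tested (12.2% higher and 30.5% lower). The PA28 activator genes *PSME1* (-0.69, SE 0.08) and *PSME2* (-0.41, SE 0.05) fell, and *POMP*, a proteasome assembly factor, rose (0.91, SE 0.07). Among 14 constitutive 20S proteasome genes 7 were higher and 1 lower, with a median of 0.21 and 57.1% called, beside the same 42.8%. *PSMB1*, on chromosome 6, rose most (0.75, SE 0.08), then *PSMA1* (0.37, SE 0.06), and *PSMA2* fell (-0.45, SE 0.09). The number higher went from 7 to 12 under median-of-ratios scaling and without shPAX2 replicate 1, to 3 without shEV replicate 2 or 3 or shPAX2 replicate 2, and to 4 without shPAX2 replicate 3.

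Of 10 peptide trimming genes tested, 5 were lower and 1 higher, with a median of -0.17, beside -0.10 and 30.5% lower over all genes, and 3 were lower under quantile normalization. The ER aminopeptidases *ERAP2* (-0.77, SE 0.15, limma adjusted p = 0.00318) and *ERAP1* (-0.48, SE 0.07, limma adjusted p = 0.000862) fell most, and the peptidase gene *DPP3* rose (0.33, SE 0.07). *ERAP2* went from 3.04, 2.86 and 2.67 TPM in shEV to 1.677, 1.147 and 1.603 TPM in shPAX2. Among 10 loading and ER chaperone genes, 1 was higher and 2 lower, with a median of 0.09. The share called was 30%, beside 42.8% of all genes tested. Under median-of-ratios scaling 4 were higher and 1 lower. *TAPBPL*, a tapasin-related peptide editor, fell by 1.12 (SE 0.17, limma adjusted p = 0.00130) and was the only gene of these lists past a log2 fold change of 1 in size. It had 6.76, 7.72 and 9.68 TPM in shEV and 2.59, 3.71 and 4.06 TPM in shPAX2. The chaperone *CALR* rose by 0.26 (SE 0.06). *GANAB*, a subunit of the ER glucosidase, passed the test at -0.16 (SE 0.05, limma adjusted p = 0.0424), a call lost under 8 of 16 alternatives, 5 of them fits without 1 library (every library but shPAX2 replicate 1).

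Of 16 regulators of class I transcription tested beside *NLRC5*, 7 were lower and 1 higher, with a median of -0.17. The share called was 50%, beside 42.8% of all genes tested (12.2% higher and 30.5% lower). *IRF1*, an interferon-induced activator of class I promoters, had 10.1, 8.47 and 7.95 TPM in shEV and 4.93, 5.05 and 5.51 TPM in shPAX2 and fell by 0.71 (SE 0.11, limma adjusted p = 0.000865). *IRF2*, which binds the same kind of element, fell by 0.68 (SE 0.09, limma adjusted p = 0.000603). *NFYA*, a subunit of the CCAAT-binding factor encoded on chromosome 6, rose by 0.26 (SE 0.08), a call lost without shEV replicate 3 or shPAX2 replicate 2 or 3 (adjusted p up to 0.0725) with no overlap between the groups. Among 10 interferon signalling genes 5 were lower and 1 higher, with a median of -0.20 and 60% called, beside 42.8% of all genes tested. The kinase gene *JAK1* (-0.57, SE 0.12) and *IRF9* (-0.46, SE 0.10) fell most, and the receptor gene *IFNGR1*, also on chromosome 6, rose (0.56, SE 0.06). Under median-of-ratios scaling the regulators counted 5 lower and 3 higher and the signalling genes 3 lower and 2 higher, and under quantile normalization the signalling genes counted 2 lower and 2 higher, with *IRF9* no longer called (adjusted p = 0.0715).

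**Figure D5:**
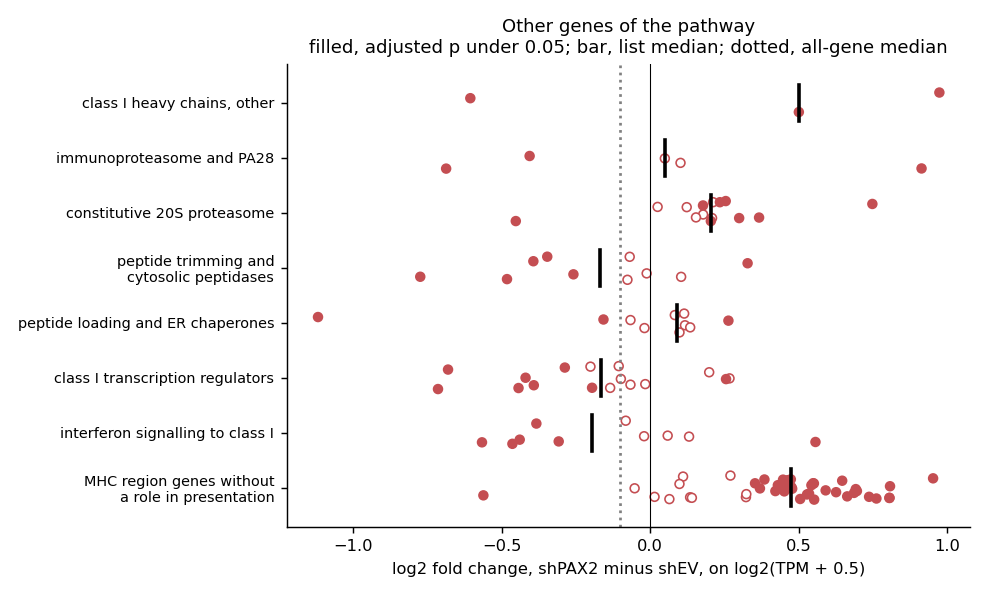
Log2 fold change (shPAX2 minus shEV, on log2(TPM + 0.5), x axis) of each tested gene of the other lists, filled where the adjusted p was under 0.05, with the list median as a bar and the median of all genes (-0.10) dotted. Of 43 MHC region genes without a role in presentation 32 were called higher, against 1 of 16 regulators and 12.2% of all genes tested.

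The transcripts whose levels followed *B2M* most closely over the 6 libraries, by Pearson r on log2(TPM + 0.5) among 10527 genes with a mean of at least 5 TPM, were *ZNF75D* (0.996), *CCDC132* (0.994), *KIAA1598* (0.994), *SUFU* (0.990) and *METTL21D* (0.989). In all, 516 genes reached an r of 0.9, over 6 libraries that share the group difference, so the likeness describes these libraries.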

How the data were processed

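Total RNA libraries of the 3 shEV and 3 shPAX2 samples were prepared with a stranded kit, and the authors deposited 1 table of TPM values by gene symbol. The submitters' processing notes name bcl2fastq, STAR, Subread, featureCounts, edgeR and hg19, without roles or versions, and the study's RNA-seq methods are stated for another line. The values of each gene were ratios of whole numbers between libraries, so reads were recovered from the deposited TPM for all 17471 genes, up to 1 unknown factor per gene, and gave the depth. Since TPM sums to the same total in each library, abundant genes that change shift the values of the rest.

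A gene entered the test if 3 or more libraries had 0.5 TPM or more. Groups were compared with limma (version 3.58.1, R 4.3.3), using lmFit and eBayes with robust and trend options, on log2(TPM + 0.5), two-sided, without covariates, with Benjamini-Hochberg adjustment over 13163 genes. Calls were made at an adjusted p under 0.05. Fold changes on this scale understate the change of low genes. Single genes and ratios were also compared by exact two-sided permutation tests. Symbols were matched to a GRCh37 annotation (94.8% of genes), and implied lengths were taken from recovered reads and TPM for genes with at least 100 reads. Promoter windows came from RefSeq on GRCh38.p14. Read recovery and the limma fit were tested on simulated data.

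The members and lists were chosen with earlier results of these data known. The genes named were the 9 members, *PAX2*, the counterparts of *PSMB9*, up to 2 called genes at each end of every list, and the 5 genes most like *B2M*. Cell type markers were named from lists of epithelial, leukocyte, fibroblast and endothelial genes. *HLA-F*, *HLA-G*, *HLA-DRB1* and *HLA-DMA* were named after their values were seen. The replicate numbers did not pair the libraries (correlations of same-numbered deviations -0.0523, 0.0815 and 0.00140). Alternatives were other pseudocounts, filters, scalings and moderation, voom on recovered reads, a replicate block, centring on chromosome 6, each library left out, and, chosen after seeing the data, MHC region genes rescaled to canonical length. No set test was run.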

Additional observations from a re-analysis of the deposited data

How the results depend on the processing

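The calls of *HLA-E*, *TAP1*, *PSMB9* and *NLRC5* held under every alternative run on the scale of all genes, *HLA-E* and *TAP1* losing theirs when libraries were centred on chromosome 6. Values moved by over 1.5 times under quantile normalization for *HLA-E* (0.32 to 0.51), *TAP1* (0.40 to 0.63), *TAP2* (0.49 to 0.76) and *PSMB9* (-0.73 to -0.46). Of the 9 members, 6 were called in the reported fit, 5 under median-of-ratios scaling, quantile normalization, no filter or plain eBayes, and 3 of the 6 members tested with a TPM filter of 5. Leaving out 1 library gave 4 to 6. The sign of *HLA-B* turned under median-of-ratios scaling (0.088), quantile normalization (0.203) and voom on recovered reads (0.037), and its value ran from -0.229 without shPAX2 replicate 1 to 0.179 without shPAX2 replicate 3, with 0.014 without shPAX2 replicate 2. *HLA-C* turned under median-of-ratios scaling (0.036) and quantile normalization (0.074), and ran from -0.169 (without shPAX2 replicate 1) to 0.014 (without replicate 3). Centred on chromosome 6, *HLA-E* (-0.017) and *TAPBP* (-0.251) reversed, and *TAPBP* ran from -0.032 (without shPAX2 replicate 1) to 0.187 (without replicate 3). What caused these reversals was not tested.

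The median of the 7 chromosome 6 members relative to that chromosome was -0.30 and ran from -0.41 without shPAX2 replicate 1 to -0.21 without shPAX2 replicate 3. The ratios that stood apart numbered 3 of 7, and 3 to 5 when 1 library was left out. Leaving out a library cannot make separate groups overlap, so this number could only stay or rise. Over all lists 70 of 111 genes were called (46 higher and 24 lower), beside 42.8% of all genes tested. The 43 MHC region genes without a role in presentation gave 33 of these calls, 32 of them higher, so most of the higher calls were not of pathway genes. The lists had 78 called under median-of-ratios scaling (60 higher and 18 lower) and 59 to 76 with 1 library left out. With the replicate number as a block, 6 members and 67 list genes were called and 4 ratios moved the same way in every pair, and the block changed the call of no member. With 3 libraries a group the exact tests cannot go below 0.1. Low read numbers limit *NLRC5* and *PSMB8*. The labels do not say whether the libraries of a group came from separate transductions, so the hairpin and the cell population that carries it cannot be told apart.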
